A study of Sus scrofa with 15 samples.

Results

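The genes of fatty acid synthesis and desaturation were followed in the liver of piglets injected with lipopolysaccharide (LPS), the endotoxin of Gram-negative bacteria. The group was given as 10 gene symbols (ACLY, ACACA, ACACB, FASN, ME1, ELOVL6, SCD, FADS2, MLXIPL and THRSP), drawn up with earlier results of these data known. Its members were found by matching these symbols to the Ensembl pig identifiers of the deposited count table, a step that used no expression value. The table had a row for 9 of the 10 symbols among its 31908 genes. No row is paired with ACACB, which is not analysed here, and all 9 others passed the filter on low counts that left 12774 genes to be tested. CON piglets received sterile saline and LPS piglets received 80 μg/kg of LPS, both by intraperitoneal injection, and the liver was taken 4 h later. All animals were male growing-stage pigs of the Duroc x Large White x Landrace cross, and the sources used here give neither their age in days nor how they were fed. Each group had 3 libraries of polyadenylated liver RNA, the input fractions of an m6A immunoprecipitation experiment. The labels do not tie the library numbers to named animals, so p-values measure the spread between these libraries.

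De novo lipogenesis turns surplus carbohydrate into fat. Citrate exported from mitochondria is split by ATP citrate lyase, acetyl-CoA carboxylase makes malonyl-CoA, and fatty acid synthase joins these units into palmitate with NADPH as the reductant, after which elongases and desaturases make longer and unsaturated chains. In liver the pathway is driven by insulin and glucose, through the transcription factors SREBP-1c and ChREBP, and in pigs adipose tissue is known as the main site of this synthesis.

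None of the 9 genes passed the adjusted threshold in either direction, and each had a log2 fold change below 0. The mean level of THRSP in the LPS group was 16.2% of that in the CON group, that of ELOVL6 was 32.2%, that of FADS2 was 34.5% and that of FASN was 42.7%. ACLY stood at the other end, with 91.7%. A gene counted as called where edgeR's quasi-likelihood test gave a Benjamini-Hochberg p under 0.05 with a difference of over 1.5-fold. By this rule 0 of the 9 genes were called, and across all tested genes 7 were called higher in the LPS group, or 0.0548%, and 0 lower, or 0%. DESeq2 called 2 of the 9, FADS2 and THRSP, both lower, where it called 1.14% of all tested genes lower and 2.02% higher. Without the filter on low counts edgeR called 3 of the 9, ELOVL6, FADS2 and THRSP, all lower, against 1.48% of all genes then tested lower and 2.28% higher. At an unadjusted p below 0.05 edgeR gave 3 genes, FASN, FADS2 and THRSP, all lower in the LPS group, against 6.33% of all tested genes lower and 6.18% higher at that p, or 12.5% in either direction. The median log2 fold change of the 9 genes was -0.83, and that of all tested genes was 0.01. In liver tissue, fewer cells of a type and less RNA per cell cannot be told apart.

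Total counts per library ranged from 4348478 to 19967417, so that counting error differed between libraries, and TMM scaling factors lay between 0.979 and 1.11 apart from 0.735 in LPS replicate 3. The 8 hepatocyte marker genes all had counts in these libraries, and 0 of the 8 passed an unadjusted p of 0.05. Their summed levels were 58582 to 75875 CPM (counts scaled to the library's TMM-adjusted total) in the CON group and 37209 to 71745 in the LPS group. The sums in LPS replicates 1 and 2 lay below the CON range, and that in LPS replicate 3 inside it. Log2 fold changes were below 0 in 4 of the 8 and above 0 in 4. SERPINA1, among those above 0 (0.23, SE 0.69), had only 10 to 38 counts per library, so its sign is imprecise. ALB was lower (log2 fold change -0.76, unadjusted p = 0.0766, edgeR) with separate groups, as for 9.8% of all tested genes. Of 8 adipocyte markers 7 had a row. ADIPOQ and LEP, which define fat cells, had 0 counts in all libraries but LPS replicate 3, which had 2 of each. The adipocyte markers summed to 12.8 to 17.0 CPM in the CON group and 16.4 to 72.3 CPM in the LPS group, and without RETN to 12.8 to 16.8 and 3.82 to 13.9 CPM. The 5 neutrophil markers with a row summed to 12.5 to 22.4 CPM in the CON group and 73.0 to 307 CPM in the LPS group, and red cell and platelet markers to 71.9 to 98.6 and 90.1 to 328 CPM. The 8 Kupffer cell and macrophage markers summed to 1032 to 1632 CPM in CON and 1338 to 2742 CPM in LPS, most of it CD14 (log2 fold change 1.06), while 3 of the 8, MRC1, TIMD4 and VSIG4, were lower at an unadjusted p below 0.05 with separate groups (log2 fold changes of -1.25, -1.07 and -0.93). Among bile duct and stellate cell markers, whose sums overlapped, KRT7 and EPCAM were higher at that p (log2 fold changes of 1.61 and 1.42). Their groups were separate, as for 6.52% of all tested genes. Of the 6 tested markers of this list, 3 were above 0 and 3 below. SOX9 was also above 0 (0.91), and COL1A1, COL3A1 and DCN were below 0 (-0.27, -0.31 and -0.49). The sums of lymphocyte and endothelial markers overlapped between the groups. Of 5 tested endothelial markers, 1 was higher and 1 lower at an unadjusted p below 0.05 in edgeR. These were LYVE1, with separate groups, and KDR, with overlapping groups (log2 fold changes of 1.16 and -0.89). The part of these cells in the levels below was not tested.

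**Figure D1:**
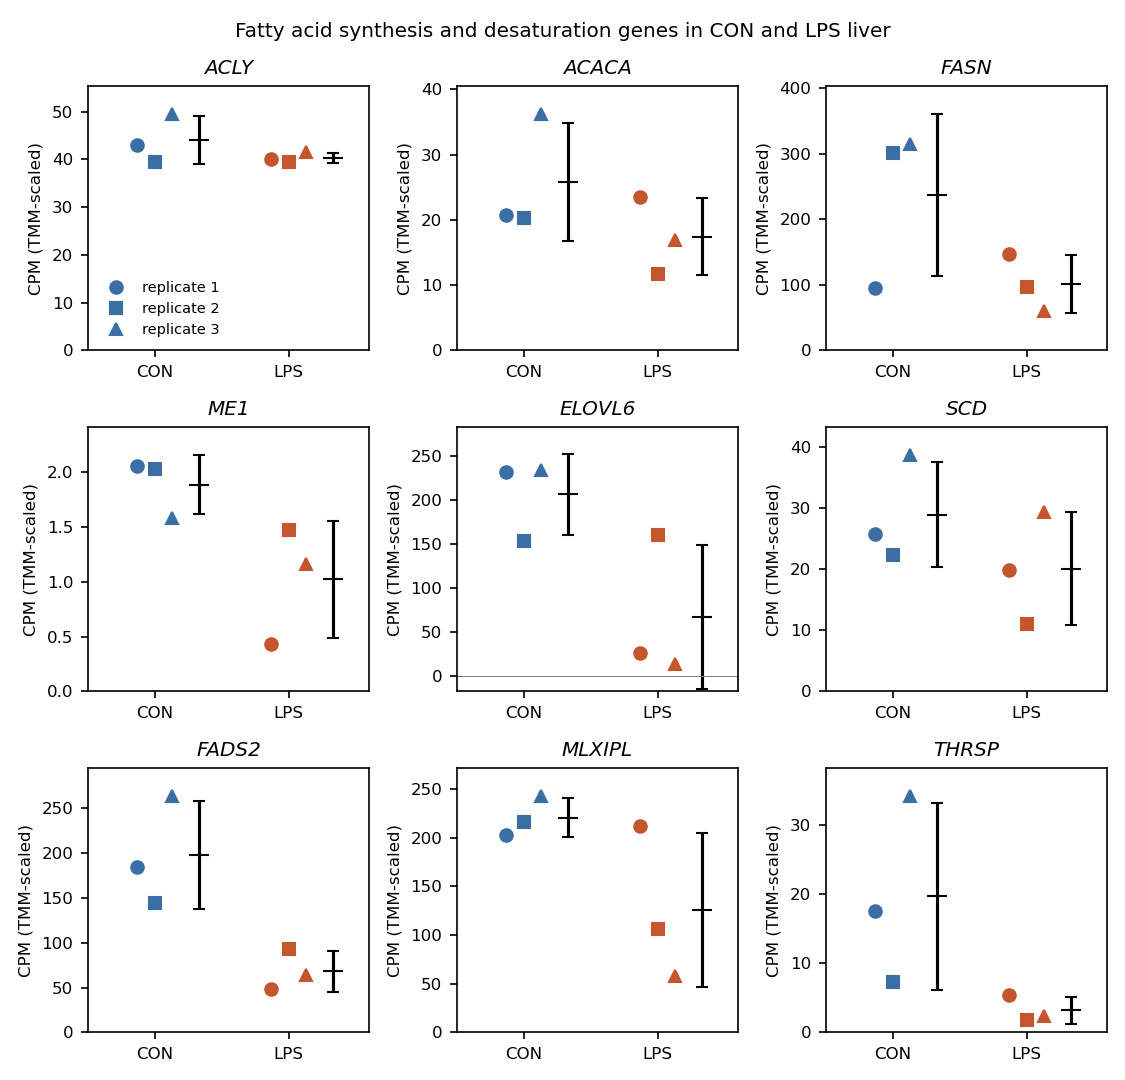
TMM-scaled CPM (vertical axes, each from 0 or, for ELOVL6, from the lower end of its error bar) of 9 genes in the 3 CON libraries (blue) and the 3 LPS libraries (orange), with the marker shape giving the replicate number and the black bar the mean ± SD of each group. The groups are separate, with LPS lower, for ME1, FADS2 and THRSP, as for 9.8% of all tested genes. LPS replicate 2 lies among the CON libraries for ELOVL6.

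The enzymes that make palmitate came next in the order of the pathway. ACLY (ENSSSCG00000017421, chromosome 12 from 20796749 to 20841298), which splits cytosolic citrate into acetyl-CoA and oxaloacetate, had 43.1, 39.5 and 49.4 CPM in CON replicates 1, 2 and 3 and 40.1, 39.4 and 41.5 CPM in LPS replicates 1, 2 and 3. The LPS values lay close together, and 2 of them were inside the CON range. Its log2 fold change (with its standard error, SE) was -0.13 (SE 0.27, adjusted p = 0.886 in edgeR).

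ACACA (ENSSSCG00000017694, chromosome 12 from 38581449 to 38875134) encodes the cytosolic acetyl-CoA carboxylase, whose malonyl-CoA is the chain-building unit. Its levels were 20.7, 20.3 and 36.2 CPM in the CON libraries and 23.5, 11.8 and 16.9 CPM in the LPS libraries. The groups overlapped, and the CON mean was raised by replicate 3. ACACA differed by a log2 fold change of -0.57 (SE 0.38, adjusted p = 0.575 in edgeR), and -0.22 without CON replicate 3. Exons of AATF on the other strand overlap those of ACACA, and the sources used here do not say whether counting used the strand. AATF had a log2 fold change of 1.29 (SE 0.48, adjusted p = 0.317 in edgeR), opposite in sign to that of ACACA.

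FASN (ENSSSCG00000029944, chromosome 12 from 920507 to 937559), the multienzyme that builds palmitate, had 94.4, 301 and 314 CPM in the CON libraries and 147, 96.7 and 59.7 CPM in the LPS libraries. CON replicate 1 was as low as the LPS libraries, whereas the other two CON libraries exceeded every LPS library. Within the CON group alone, the highest value was 3.33 times the lowest. For FASN the log2 fold change was -1.23 (SE 0.50, unadjusted p = 0.0349, adjusted p = 0.360, edgeR), and it ranged from -1.61 without CON replicate 1 to -0.95 without LPS replicate 3. FASN passed an unadjusted p of 0.05 in 2 of the 6 fits that left out a library, those without CON replicate 1 and without LPS replicate 1. It did not pass with limma-voom, nor in edgeR with the replicate number as a block.

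ME1 (ENSSSCG00000004454, chromosome 1 from 82794964 to 82991104), the cytosolic malic enzyme that supplies NADPH, was the least abundant of the 9 genes. It had 23, 13 and 16 counts in the CON libraries and 2, 9 and 17 counts in the LPS replicates, or 2.06, 2.03 and 1.58 CPM against 0.436, 1.47 and 1.16 CPM. Every LPS value was below every CON value, as for 9.8% of all tested genes. The exact 95% Poisson interval of LPS replicate 1, which covers counting error only, ran from 0.0528 to 1.58 CPM, and that of CON replicate 3 from 0.904 to 2.57 CPM. That of LPS replicate 2, the LPS library nearest to CON, ran from 0.673 to 2.80 CPM and held every CON value. The log2 fold change of -0.83 (SE 0.56, adjusted p = 0.581 in edgeR) therefore rests on few reads.

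Of the 9 genes, 3 lengthen or desaturate the chain, and FADS2 was the one among them whose groups were separate. FADS2 (ENSSSCG00000013072, chromosome 2 from 9629422 to 9666676) encodes the delta-6 desaturase, which starts the conversion of linoleic and alpha-linolenic acid into long polyunsaturated fatty acids. It had 185, 145 and 264 CPM in the CON libraries and 48.2, 92.6 and 63.7 CPM in the LPS libraries. All LPS libraries lay below all CON libraries, as they did for 9.8% of all tested genes, and the spread within the groups was similar, with a highest value 1.82 times the lowest in CON and 1.92 times in LPS. The log2 fold change was -1.54 (SE 0.37, unadjusted p = 0.00216, adjusted p = 0.174, edgeR), a 2.90-fold lower level. DESeq2 called it (adjusted p = 0.0120). edgeR without LPS replicate 2 called it too (log2 fold change -1.82, adjusted p = 0.0217). That library was the LPS one nearest to CON, so the fit without it is no independent support. That fit called 3.45% of its tested genes lower. On the table with low genes kept, edgeR called FADS2 with an adjusted p of 0.00679. Over the 13 alternatives run for it the adjusted p reached 0.586.

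ELOVL6 (ENSSSCG00000036236, chromosome 8 from 111750960 to 112191274), the elongase that takes palmitate to stearate, had 232, 153 and 234 CPM in the CON replicates. In the LPS replicates it had 25.5, 161 and 13.2 CPM. LPS replicates 1 and 3 were far below every CON library, and LPS replicate 2 was inside the CON range. The highest LPS value was 12.1 times the lowest, the widest spread of the 9 genes in that group, against 1.53 times in CON. With all libraries the log2 fold change was -1.64 (SE 0.79, unadjusted p = 0.0690, adjusted p = 0.446, edgeR). Without LPS replicate 2 it was -3.42 (SE 0.45, adjusted p = 0.00248 in edgeR), in a fit that called 3.45% of its tested genes lower. That fit drops the LPS library inside the CON range, so its call is no independent support. Without LPS replicate 3 the log2 fold change was -1.13.

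SCD (ENSSSCG00000010554, chromosome 14 from 111461560 to 111478031), the delta-9 desaturase that turns stearate into oleate, had 25.8, 22.3 and 38.7 CPM in the CON libraries and 19.8, 10.96 and 29.4 CPM in the LPS libraries. The groups overlapped, and LPS replicate 3, the lowest library for ELOVL6 and FASN, had the highest SCD level of the LPS group. For SCD the log2 fold change was -0.52 (SE 0.41, adjusted p = 0.638 in edgeR). It was -0.22 without LPS replicate 2 and -0.90 without LPS replicate 3.

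Both regulators of the group were measured as well. MLXIPL (ENSSSCG00000007710, chromosome 3 from 10894270 to 10934047), which encodes the carbohydrate-sensing factor ChREBP, had 203, 216 and 243 CPM in the CON libraries and 212, 107 and 58.4 CPM in the LPS libraries. LPS replicate 1 was at the CON level and the other two LPS libraries were below it. The log2 fold change of -0.81 (SE 0.44, adjusted p = 0.492 in edgeR) was -1.41 without LPS replicate 1 and -0.45 without LPS replicate 3.

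THRSP (ENSSSCG00000033822, chromosome 9 from 12479909 to 12488557) encodes Spot 14, a small protein of lipogenic tissues that responds to thyroid hormone and carbohydrate. With all libraries it had the largest fold difference of the 9 genes. Its levels were 17.6, 7.34 and 34.2 CPM in the CON libraries and 5.45, 1.80 and 2.32 CPM in the LPS libraries. All LPS libraries lay below all CON libraries, as for 9.8% of all tested genes. CON replicate 2 was closer to LPS replicate 1 than to the other CON libraries. THRSP had a log2 fold change of -2.68 (SE 0.63, unadjusted p = 0.00170, adjusted p = 0.160, edgeR), a 6.40-fold lower level, and of -1.98 without CON replicate 3, the library with the highest value. It was called by DESeq2 (adjusted p = 0.0019) and by edgeR on the table with low genes kept, with an adjusted p of 9.62e-07. Over the 13 alternatives run for it the adjusted p reached 0.586. Exons of NDUFC2 on the other strand overlap the THRSP model, so reads of the pair are uncertain. NDUFC2 had 20.3, 27.3 and 26.7 CPM in the CON libraries and 17.9, 12.3 and 16.2 CPM in the LPS replicates, and its log2 fold change was -0.68 (SE 0.31, adjusted p = 0.413 in edgeR).

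**Figure D2:**
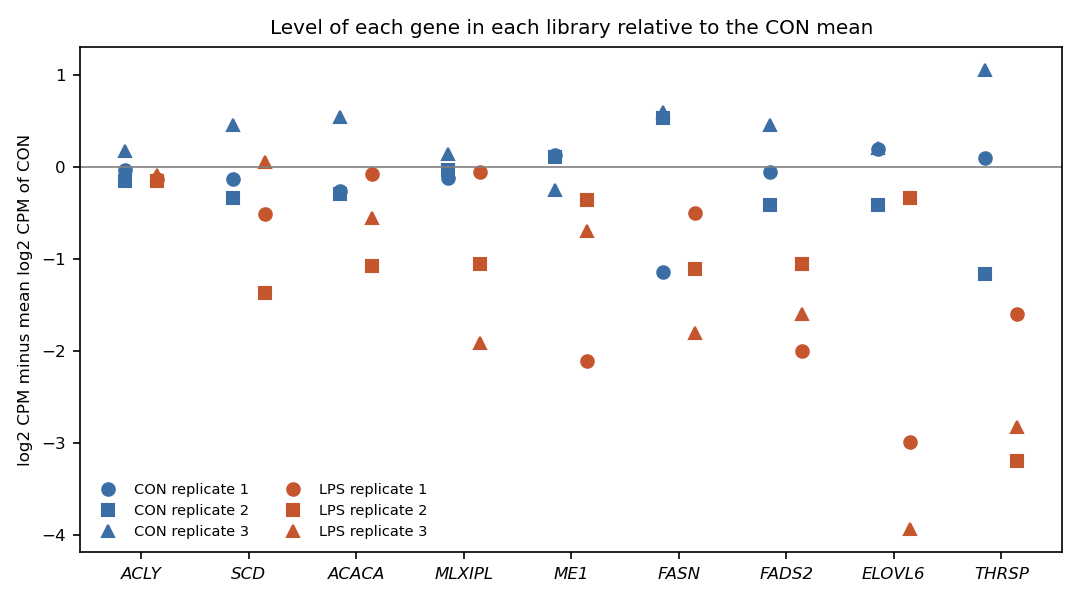
For each gene, the log2 CPM of each library minus the mean log2 CPM of the CON libraries (vertical axis, log2 units), with genes ordered by log2 fold change, CON in blue and LPS in orange, and the marker shape giving the replicate number. The spread within the LPS group runs from narrow for ACLY to wide for ELOVL6. CON replicate 3 is the highest library for 8 of the 9 genes, a count not taken over all tested genes.

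The LPS libraries did not rank alike from gene to gene. The lowest LPS value belonged to LPS replicate 1 in 2 genes, to LPS replicate 2 in 4 genes and to LPS replicate 3 in 3 genes. Relative to the mean log2 level of the CON libraries, the median over the 9 genes was -0.50, -1.05 and -1.59 in LPS replicates 1, 2 and 3. In the CON libraries it was -0.05, -0.29 and 0.46. CON replicate 3 was the highest of the 6 libraries in 8 of the 9 genes, with ME1 as the exception. LPS replicate 1 lay below the CON range in 5 genes and inside it in 4, and LPS replicates 2 and 3 lay below it in 7 genes each and inside it in 2 each. These counts by library were not taken over all tested genes. They are therefore not shown to be particular to the 9 genes.

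Ratios of levels per kilobase within a library show that the genes did not move in step. FADS2 stood at 6.97, 6.29 and 6.63 times the SCD level in the CON replicates. In the LPS replicates the ratio was 2.36, 8.21 and 2.10, so that LPS replicate 2 was above and the other two were below the CON values. ELOVL6 stood at 2.91, 0.603 and 0.881 times the FASN level in the CON libraries and at 0.206, 1.97 and 0.263 times in the LPS libraries. LPS replicate 2 was inside the CON range for this ratio, and the other two LPS libraries were below it.

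Levels could be ordered between genes only after division by the length of the gene model. In CON liver MLXIPL was highest, at 48.2 ± 4.4 CPM per kilobase (mean ± SD, n = 3), and its range did not overlap that of the next gene. FADS2 (32.9 ± 10.1), ELOVL6 (28.9 ± 6.5) and FASN (28.0 ± 14.6 CPM per kilobase) followed, and neighbours among them were not separated by their ranges. ACLY had 9.999 ± 1.141 CPM per kilobase, a range that overlapped the lowest FASN library but not SCD. THRSP (3.77 ± 2.59 CPM per kilobase) overlapped both SCD above it (4.95 ± 1.47) and ACACA below it (2.57 ± 0.90), and ME1 was last with 0.356 ± 0.050, separate from ACACA. In the LPS group MLXIPL was again highest on average, at 27.5 ± 17.2 CPM per kilobase, but its range now overlapped that of FASN (12.0 ± 5.2). THRSP, at 0.610 ± 0.378 CPM per kilobase, was separated from both ACACA above it (1.74 ± 0.59) and ME1 below it (0.193 ± 0.100).

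**Figure D3:**
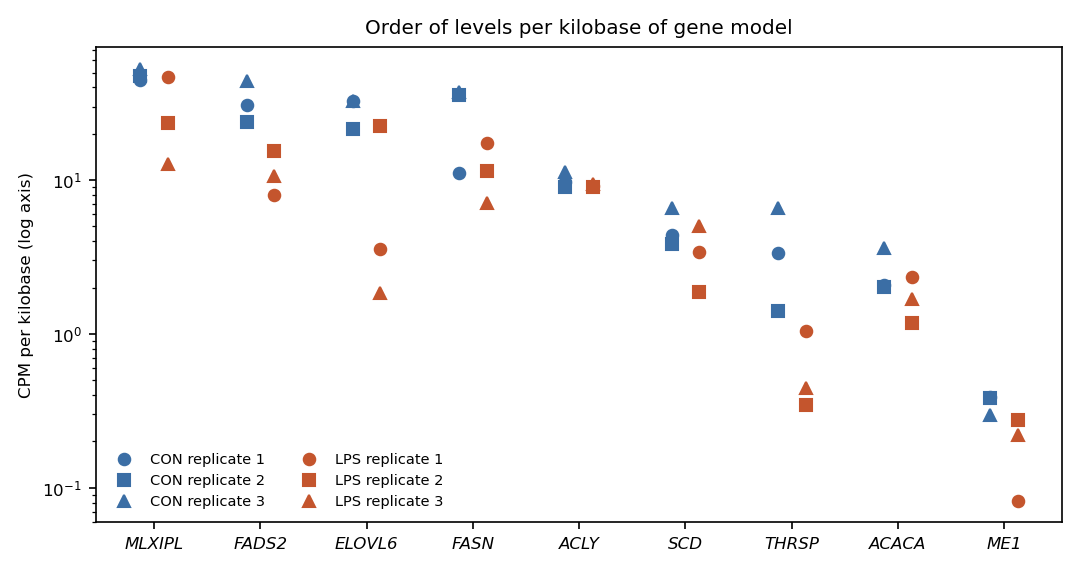
TMM-scaled CPM divided by the length of the gene model in kilobases (vertical log axis) for the 9 genes in the order of their CON mean, with each CON library in blue and each LPS library in orange. MLXIPL has the highest CON mean (48.2 CPM per kilobase) and ME1 the lowest (0.356), and THRSP is separated from ACACA in the LPS group only.

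The other genes of the pathway were taken from 7 lists of 79 genes, of which 76 had a row and 71 were tested. edgeR called 0 of the 71 in either direction. At an unadjusted p below 0.05, 2 were higher and 11 were lower in the LPS group, that is 15.5% lower against 6.33% of all tested genes, and the median log2 fold change was -0.11. With LPS replicate 2 left out, 1 gene higher and 10 lower of 73 tested were called by edgeR, which then called 3.76% of all tested genes higher and 3.45% lower. LPS replicate 2 was inside the CON range in 39 of the 71 genes, against 16 for LPS replicate 1 and 18 for LPS replicate 3. The shares of all tested genes inside that range were not taken.

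The list of other elongases, desaturases and their partner enzymes was the one most like the 9 genes in its median, which was -0.87 over 12 tested genes. Of these, 5 were lower and 0 higher at an unadjusted p below 0.05, that is 41.7% lower against 6.33% of all tested genes. ELOVL5, which elongates polyunsaturated chains made by FADS2, had 87.8, 61.1 and 86.1 CPM in the CON libraries and 26.6, 34.2 and 25.3 CPM in the LPS libraries. Its groups were far apart relative to their spread, with a log2 fold change of -1.45 (SE 0.31, unadjusted p = 0.000837, adjusted p = 0.114, edgeR). CYB5A, the cytochrome b5 that carries electrons to the desaturases, had 476, 349 and 321 CPM in CON and 155, 150 and 143 CPM in LPS, a log2 fold change of -1.35 (SE 0.31, adjusted p = 0.147 in edgeR). Its LPS values were close together, LPS replicate 2 included. Without LPS replicate 2 edgeR called both genes, with adjusted p of 0.0233 for ELOVL5 and 0.0474 for CYB5A. For ELOVL5 that library was the LPS one nearest to CON, so its call is no independent support.

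CYB5R3, the reductase that feeds cytochrome b5, had a log2 fold change of -0.94 (SE 0.42, unadjusted p = 0.0490, adjusted p = 0.396, edgeR), and its exons overlap those of POLDIP3 on the same strand. HACD3, a dehydratase of the elongation cycle, had -0.85 (SE 0.36, unadjusted p = 0.0376, adjusted p = 0.367, edgeR), with overlapping groups.

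FADS2 lies between its relatives FADS3 and FADS1, at 9607530 to 9627317 and at 9735293 to 9749671 on chromosome 2. FADS1, the delta-5 desaturase, had 114, 52.2 and 146 CPM in CON and 49.5, 31.6 and 61.4 CPM in LPS. The groups overlapped by a single library on each side, and the log2 fold change was -1.13 (SE 0.43, unadjusted p = 0.0250, adjusted p = 0.331, edgeR). FADS3, named after its values were seen, was at a low level, with 2.41, 3.28 and 3.16 CPM in CON and 3.71, 8.18 and 3.48 CPM in LPS. Every LPS value was above every CON value, as for 6.52% of all tested genes, and the log2 fold change was 0.79 (SE 0.47, adjusted p = 0.525 in edgeR).

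Of the 10 tested genes that supply citrate, acetyl-CoA and NADPH, 3 were lower and 1 was higher at an unadjusted p below 0.05. That is 30% lower against 6.33% of all tested genes. ACSS2, which makes cytosolic acetyl-CoA from acetate, had 21.9, 23.0 and 26.3 CPM in CON and 3.71, 13.1 and 4.10 CPM in LPS. The groups were separate, as with LPS lower for 9.8% of all tested genes, and LPS replicate 2 was the closest to CON. The log2 fold change was -1.77 (SE 0.49, unadjusted p = 0.00499, adjusted p = 0.218, edgeR). Its exons overlap those of GSS on the other strand, which had a log2 fold change of 0.40 (SE 0.34, adjusted p = 0.669 in edgeR).

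IDH1, a cytosolic source of NADPH, had nearly equal values of 158, 157 and 155 CPM in CON and 40.6, 116 and 52.4 CPM in LPS, with a log2 fold change of -1.17 (SE 0.41, adjusted p = 0.293 in edgeR). ACSS2 and IDH1 were called by edgeR without LPS replicate 2, at -2.59 and -1.75 with adjusted p of 0.00465 and 0.0158. That library was the LPS one nearest to CON for both genes, so these calls are no independent support. ME2, a mitochondrial malic enzyme, had a log2 fold change of -0.93 (SE 0.36, adjusted p = 0.344 in edgeR).

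The higher gene was MDH1, the cytosolic malate dehydrogenase, with 81.1, 45.9 and 46.9 CPM in CON and 95.7, 92.3 and 228 CPM in LPS and a log2 fold change of 1.26 (SE 0.44, adjusted p = 0.290 in edgeR). The citrate carrier SLC25A1 had 105, 135 and 120 CPM in CON and 63.2, 114 and 12.2 CPM in LPS. Its groups overlapped through LPS replicate 2, with a log2 fold change of -0.93 (SE 0.63, adjusted p = 0.579 in edgeR). PC, which encodes the pyruvate carboxylase that replenishes oxaloacetate, had a log2 fold change of -0.51 (SE 0.37, adjusted p = 0.612 in edgeR).

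Of the 14 tested regulators, 2 were lower and 0 higher at an unadjusted p below 0.05, that is 14.3% lower against 6.33% of all tested genes. INSIG2, an endoplasmic reticulum protein that retains the SREBP precursors, had 52.9, 25.3 and 25.7 CPM in CON and 3.49, 17.3 and 8.33 CPM in LPS. All LPS libraries were below all CON libraries, as for 9.8% of all tested genes. The log2 fold change was -1.83 (SE 0.55, unadjusted p = 0.00796, adjusted p = 0.236, edgeR). INSIG2 was called by edgeR without LPS replicate 2, at -2.49 with an adjusted p of 0.0172. That library was the LPS one nearest to CON, so the call is no independent support. SREBF2, whose product drives cholesterol synthesis, had 150, 190 and 224 CPM in CON and 88.5, 119 and 110 CPM in LPS, a log2 fold change of -0.83 (SE 0.31, adjusted p = 0.326 in edgeR).

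SREBF1, the gene of SREBP-1c, and INSIG1 are named here after their values were seen. SREBF1 had 13.9, 26.6 and 37.8 CPM in CON and 34.7, 17.3 and 18.9 CPM in LPS, fully overlapping groups with a log2 fold change of -0.15 (SE 0.43, adjusted p = 0.919 in edgeR). INSIG1, a homologue of INSIG2, had 247, 344 and 130 CPM in CON and 158, 187 and 1022 CPM in LPS. The high value in LPS replicate 3 stood alone, and the log2 fold change was 0.92 (SE 0.70, adjusted p = 0.629 in edgeR). The most abundant regulators per kilobase, NR1H2, USF2 and RXRA, had log2 fold changes of 0.49, -0.02 and -0.11, with edgeR adjusted p of 0.581, 0.988 and 0.942.

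Among 11 tested genes of insulin signaling and glucose use, 1 was lower at an unadjusted p below 0.05. That is 9.09%, near the 6.33% of all tested genes. PKLR, the liver pyruvate kinase and a known target of ChREBP, had 36.6, 36.9 and 30.6 CPM in CON and 20.5, 20.4 and 14.8 CPM in LPS. Its groups were separate, as with LPS lower for 9.8% of all tested genes. PKLR had a log2 fold change of -0.90 (SE 0.30, unadjusted p = 0.0133, adjusted p = 0.268, edgeR), and its exons overlap those of the less abundant HCN3 on the other strand. TXNIP, a further known ChREBP target, had a log2 fold change of -0.11 (SE 0.32, adjusted p = 0.919 in edgeR). GCKR, whose exons overlap those of FNDC4 on the other strand, and the insulin receptor substrate IRS2 had 0.48 and 0.56, with edgeR adjusted p of 0.622 and 0.691.

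In the remaining lists, 0 of 9 tested genes of mitochondrial fatty acid synthesis, 0 of 6 acyl-CoA synthetases and 0 of 9 genes acting on acetyl-CoA carboxylase or malonyl-CoA passed an unadjusted p of 0.05 in edgeR. Their median log2 fold changes were -0.18, -0.49 and -0.05. The most abundant mitochondrial genes per kilobase, HSD17B8, NDUFAB1 and MECR, had log2 fold changes of -0.16, 0.54 and 0.18, with edgeR adjusted p of 0.862, 0.638 and 0.835.

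ACSL1, which activates fatty acids in hepatocytes, had 290, 1023 and 396 CPM in the LPS replicates against 1247, 748 and 1237 CPM in CON. Its groups overlapped through LPS replicate 2, with a log2 fold change of -0.92 (SE 0.49, adjusted p = 0.476 in edgeR). Leaving out that library removes the overlap by choice, so edgeR's call without it (log2 fold change -1.65, adjusted p = 0.0352) is no independent support. That fit called 3.45% of its tested genes lower. ACSL5 and ACSL4 had 0.29 and -0.22, with edgeR adjusted p of 0.834 and 0.911. STK11, the kinase upstream of AMPK, had 0.64, the AMPK subunit gene PRKAG1, whose exons overlap an unnamed gene, had -0.05, and MLYCD, which degrades malonyl-CoA, had -0.09, with edgeR adjusted p of 0.515, 0.972 and 0.963.

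**Figure D4:**
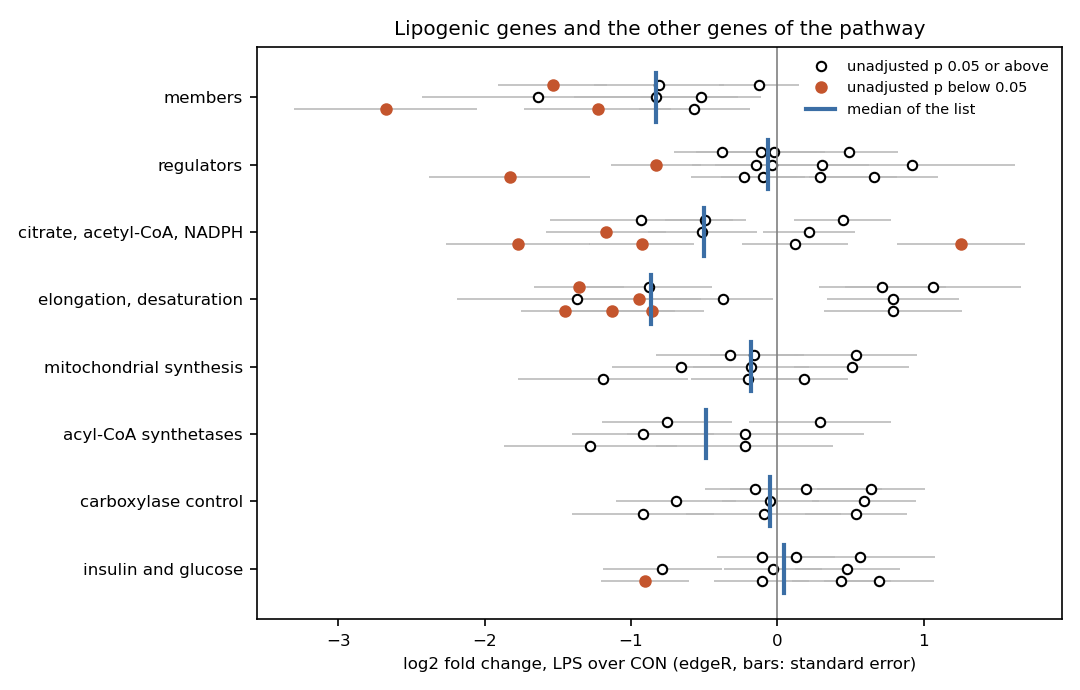
edgeR log2 fold change, LPS over CON (horizontal axis, grey bars the standard error), of the 9 genes (top row, members) and of the genes shown from the 7 lists of other pathway genes, with filled points at an unadjusted p below 0.05 and a blue line at the median of the genes shown in each row. The medians of the 9 genes (-0.83) and of the elongation and desaturation list (-0.87) lie furthest below 0.

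**Figure D5:**
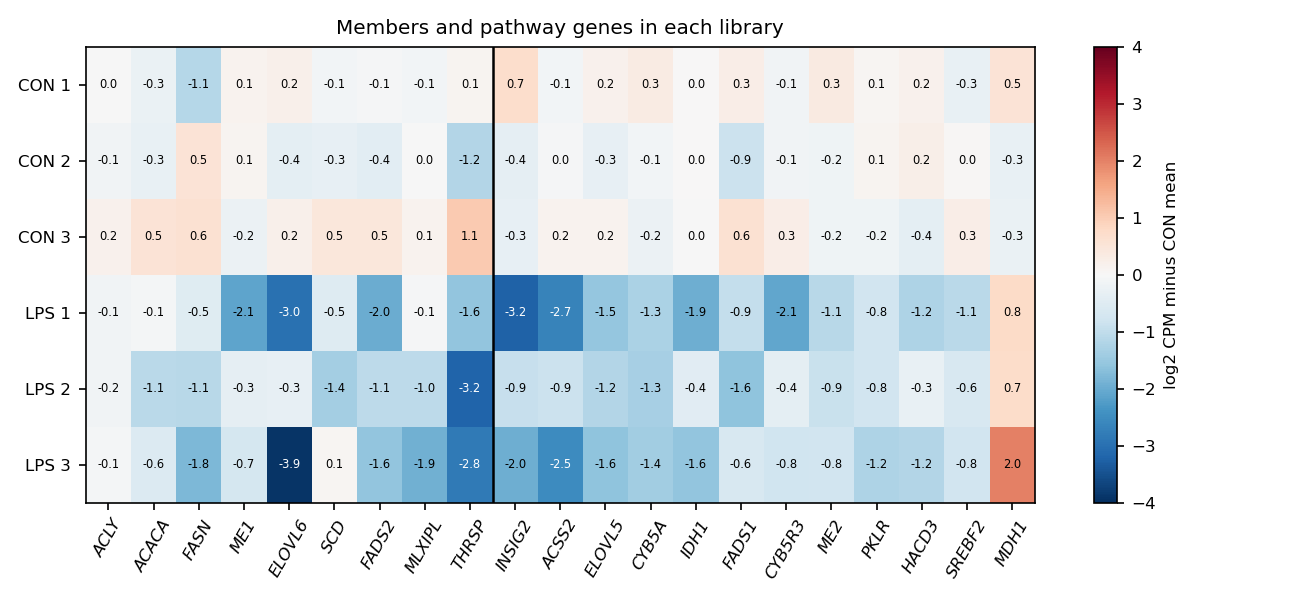
log2 CPM minus the mean log2 CPM of the CON libraries (colour scale and printed values) in each of the 6 libraries, for the 9 genes (left of the line) and for other pathway genes described in the text at an unadjusted p below 0.05 (right of the line, ordered by log2 fold change). THRSP, FADS2, ELOVL5 and CYB5A are below the CON mean by more than 1 in each LPS library, whereas ELOVL6 is so in LPS replicates 1 and 3 only.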

How the data were processed

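Input RNA of the m6A experiment was used, with 3 CON and 3 LPS liver libraries. The m6A-IP libraries were not analysed here. The deposited table gives whole-number read counts for each gene, without normalization by the authors, and its coordinates and length. The submitters' processing notes name cutadapt 1.9.3 and HISAT2, and 2 genome builds, galGal6 and hg38, which are not of the pig. The sources used here name no pig build, counter, strand setting or treatment of shared reads. All 9 spans overlapped the RefSeq Sscrofa11.1 gene of the same symbol. Of the 31908 identifiers, 15029 were paired with a symbol by the reference table. In the labels 2 sequencing entries belong to each of CON replicates 1 and 2, and the count table holds 1 column for each, and 0 sample columns were left unmapped. No pair of libraries was alike within sampling noise, the smallest chi-square per gene being 51.8.

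Counts were fitted in R 4.3.3 with edgeR 4.0.16 (filterByExpr with a minimum count of 10, TMM, robust dispersions, glmQLFit and glmQLFTest) over all tested genes. Standard errors (SE) were derived from the log2 fold change and the square root of its F statistic. CPM are TMM-scaled, and levels per kilobase use the deposited length. Exact permutation of 3 against 3 libraries allows no two-sided p under 0.1. Alternatives comprised DESeq2 1.42.0, voom in limma 3.58.1, RLE or total-count scaling, testing without a filter or only genes with 10 or more counts in all libraries, a block for replicate number, omission of each library, and a fold threshold of none or 2. Scripts were tested on simulated data. The members and lists were chosen with earlier results of these data known. The text names all members, the 3 most abundant genes per kilobase of each other list and every list gene at an unadjusted p below 0.05. The result of 1 list gene is not reported here.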

Additional observations from a re-analysis of the deposited data

How the results depend on the processing

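Over 115 values of the 9 genes under the alternatives in which each was tested, the log2 fold change was below 0 in every case, 108 stayed on the same side of the threshold and 7 passed it. Of the 9 genes, edgeR without the filter on low counts called 3 (ELOVL6, FADS2 and THRSP), DESeq2 called 2, and leaving out a library gave 0 to 2 calls, the 2 being ELOVL6 and FADS2 without LPS replicate 2. At an unadjusted p below 0.05, 5 of the 9 were lower without the filter and 2 to 4 with a library left out. The share of all tested genes at that p was taken in the main fit only (6.33% lower). These counts therefore have no share of their own fits beside them. With a library left out, their median log2 fold change ranged from -1.25 (without LPS replicate 1) to -0.83 (without CON replicate 2), and it was -0.79 with RLE factors and -0.80 with DESeq2. Scaling to total counts moved the median of all tested genes to -0.12.

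Among the other pathway genes, 4 were higher and 19 lower without the filter at an unadjusted p below 0.05. With a library left out, 1 to 6 were higher and 5 to 19 lower, the most without LPS replicate 2 and the fewest lower without LPS replicate 1. The share of all tested genes at that p was not taken in these fits. Over all tested genes, edgeR called 8 higher and 1 lower with RLE factors, 11 and 1 with total counts, 536 and 349 without the filter, and 0 higher with at least 10 counts in every library. DESeq2 called 258 and 146, and limma-voom 4 and 2. Leaving out a library gave 0 to 512 higher and 0 to 470 lower, the most without LPS replicate 2 and 0 of each without any 1 of the CON libraries. The cause of these differences was not tested.

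With the replicate number as a block, edgeR called 42 higher and 9 lower of all tested genes and 0 of the 9 genes. Deviations from the group means had correlations of -0.27, 0.23 and 0.02 over the tested genes for same-numbered libraries. For unlike-numbered libraries they ran from -0.27 to 0.24. Deviations from a mean of 3 libraries are tied to each other, so these values do not show whether a number marks a shared origin. ME1 was not tested without CON replicate 1 or with at least 10 counts in every library. ME1 and THRSP had as few as 2 and 11 counts in an LPS library, which limits their precision.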
